A study of Paraphaeosphaeria sporulosa with 23 samples.

Results

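Transcript levels of whole cultures of Paraphaeosphaeria sporulosa 1 day after selenite was added were compared with those at the moment before the addition. The organism is a filamentous ascomycete fungus, strain AP3s5-JAC2a. The comparison takes 8 of the 23 libraries of the series, chosen by the titles in the labels: 5 libraries named selenium at day 1 and 3 control libraries at day 0. It is described across the 15164 genes of the deposited table of CPM (the reads of a gene scaled to a common total of reads in genes).

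The selenite day 1 flasks received 0.1 mM sodium selenite and were kept for 1 further day, and the control day 0 flasks received none. All flasks were inoculated with homogenised mycelium of a 14-day preculture in a medium based on yeast extract, and grew for 18 days in the dark without shaking before day 0. Selenite and a further day of culture therefore differ together between the groups, and their parts cannot be told apart within these 8 libraries. For that reason the 6 control libraries of day 1, which had the extra day without selenite, are set beside the values below. Nothing in the labels tells whether each library of a group had a flask of its own, so the p-values measure a spread among libraries that may be technical. RNA of the whole culture was sequenced, so fewer cells of one kind and less RNA per cell cannot be told apart.

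Selenite is a soluble oxyanion of selenium in the +4 oxidation state. In many fungi and bacteria it is reduced to red elemental selenium or to volatile methylated forms, and its reduction by thiols such as glutathione can give reactive oxygen species. In baker's yeast it enters cells partly through phosphate carriers, and selenium can take the place of sulfur in amino acids. The deposited files name genes by locus tag only, with no product names, so the results are ordered by level, change, position and gene structure, and no roles are given to single genes.

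Reads in genes numbered 26002035 to 29803613 per library among the 8, and the groups overlapped in this total. At that depth 3 reads, the floor used here for a gene without reads, correspond to 0.101 to 0.115 CPM. Mates were counted singly, so both mates of a fragment can count, and this floor does not fully cover even counting error. On log2 levels of the tested genes, the first principal component of the 8 libraries held 76.6% of the variance, with selenite day 1 libraries at 75.0 to 85.5 and control day 0 libraries at -133 to -132. Pearson's r across genes was 0.947 to 0.963 between selenite day 1 libraries, and 0.738 to 0.782 between a selenite day 1 and a control day 0 library; genes are not independent replicates. Within the groups, 2 libraries stood apart. Selenite day 1 replicate 1 lay at -65.7 on the second component (5.60% of the variance), against 2.55 to 28.2 for the other selenite day 1 libraries. Control day 0 replicate 1 correlated with the other day 0 libraries at 0.964 and 0.960, and these 2 with each other at 0.984. Results that rest on that library are given without it below.

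The selenite day 1 transcriptome was concentrated in few genes. Each library's 100 most-read genes held 61.7%, 60.8%, 53.7%, 53.8% and 58.0% of all reads in the 5 selenite day 1 libraries, against 23.7%, 32.9% and 34.5% in the 3 control day 0 libraries. The groups did not overlap, and the means were 57.6% ± 3.79 and 30.4% ± 5.86 (SD, n = 5 and 3; exact permutation test, two-sided, p = 0.0179, adjusted p = 0.0357 over 8 measures of the libraries). That raw p is the smallest that the exact permutation test allows for 5 against 3 libraries. The gene with the most reads held 9.05% to 12.7% of reads in selenite day 1 libraries and 0.902% to 2.75% in control day 0 libraries, again without overlap (adjusted p = 0.0357, exact permutation test). Control day 1 libraries lay between them, with 41.2% ± 2.83 in the top 100 genes and 5.74% ± 1.02 in the top gene (SD, n = 6).

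**Figure D1:**
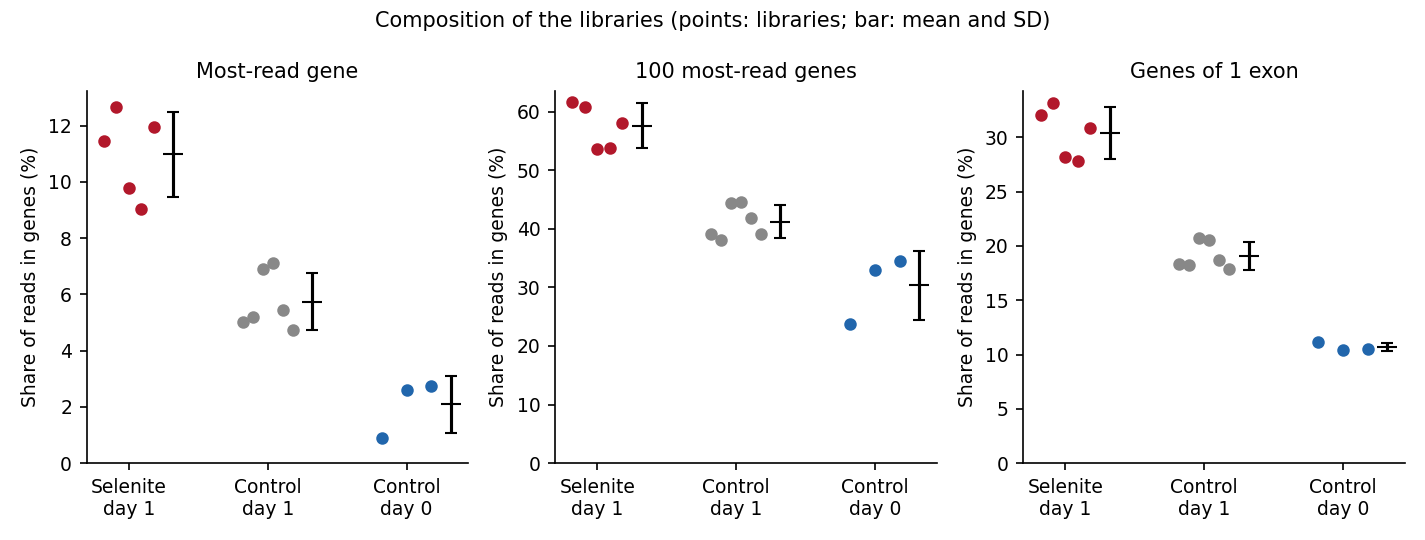
Share of a library's reads (percent) in its most-read gene, in its 100 most-read genes and in all genes of 1 exon, for selenite day 1 (n = 5), control day 1 (n = 6) and control day 0 (n = 3); points are libraries, and the bar beside them is the mean with its SD. Selenite day 1 libraries lie above every control day 0 library in all 3 panels, and in the top 100 genes control day 0 replicate 1 is lowest at 23.7%.

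None of the 10 genes with the highest mean share of reads at selenite day 1 was among the 10 highest at control day 0, and 40 of the top 100 were shared. The 10 leading genes of selenite day 1 held 31.8% of reads in those libraries, 13.1% at control day 1 and 2.53% at control day 0. In return, the 10 leading genes of control day 0 held 2.20% of reads at selenite day 1, 6.455% at control day 1 and 10.6% at control day 0. Each list was chosen by the group it leads, which favours its share there. Of the 10 leading genes of control day 0, 5 were called lower at selenite day 1 and 5 did not pass the test, with log2 fold changes between -0.50 and -0.05. These fold changes are on values scaled for composition, as described below, and not on shares of reads. In share of reads those 5 genes were all lower at selenite day 1. CC84DRAFT_1184315 held 0.554% there against 1.86% at control day 0, and CC84DRAFT_1124048 0.418% against 0.809%.

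Across the 13676 genes that passed a filter on low counts, 8251 were called changed by limma (Benjamini-Hochberg adjusted p under 0.05), which is 60.3% of those tested. Of these, 4097 genes rose (30%) and 4154 fell (30.4%). With the scaling used here, large rises outnumbered large falls: 896 genes rose at least 8-fold (6.55%) and 291 fell at least 8-fold (2.13%), and 103 genes rose at least 64-fold against 4 that fell as far. Counts past a fold depend on the scale: with edgeR on whole reads, 749 genes rose and 102 fell at least 64-fold, and 1668 rose and 587 fell at least 8-fold. The libraries of the groups did not overlap for 7478 genes (54.7%), of which 7084 were called.

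The balance of rises and falls depends on how libraries are scaled. The main values are CPM divided by a composition factor (TMM, a trimmed mean of ratios between libraries), called scaled CPM here. These factors averaged 0.625 ± 0.0613 at selenite day 1 and 1.22 ± 0.288 at control day 0, without overlap (exact permutation test, adjusted p = 0.0357). With TMM the median log2 fold change of all tested genes was -0.01 and 49.7% of called genes were higher. With library size alone the median shifted to -0.73, 27.2% of the called genes were higher (2449 higher and 6549 lower), and 510 genes rose and 875 fell at least 8-fold, so the lead of large rises over large falls turned round. A direction below is relative to the other genes, and of the named genes it is stated where the scaling turns it.

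**Figure D2:**
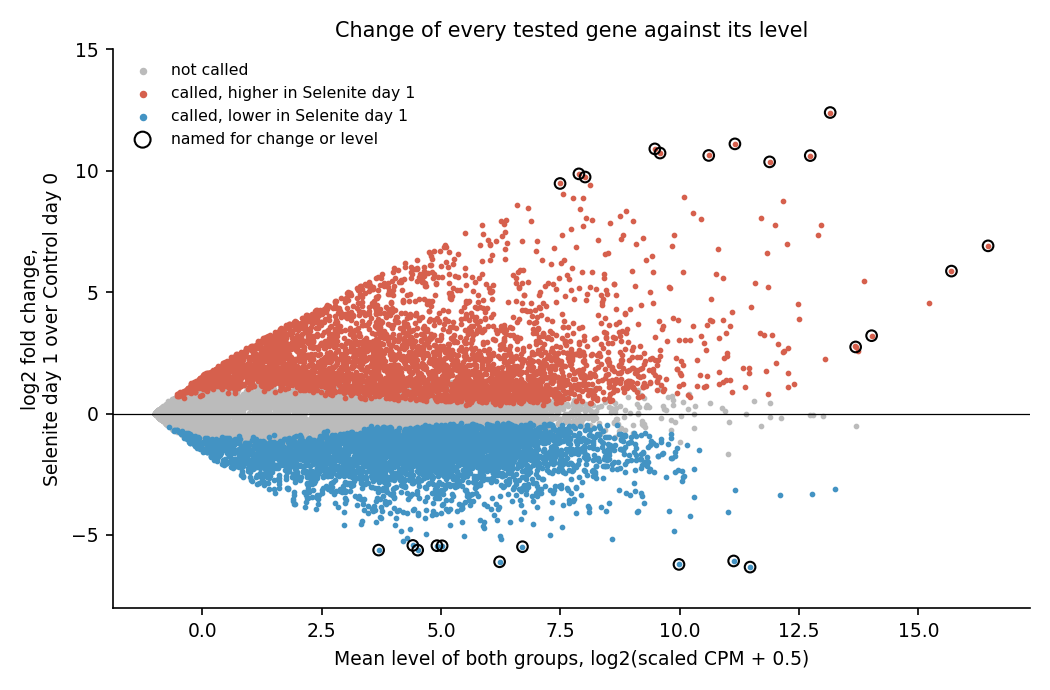
Log2 fold change of selenite day 1 over control day 0 against the mean level of both groups, log2(scaled CPM + 0.5), for each of the 13676 tested genes; red and blue points are called higher and lower at selenite day 1, grey points are not called, and rings mark 24 genes named for their change or level. Rises reach 12.39 and falls -6.32 on the log2 scale, and the few genes with the highest levels lie above 0.

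On the log2(scaled CPM + 0.5) scale, the largest rise was that of CC84DRAFT_1191218, a gene of 3 exons on scaffold NW_017253374.1 (bases 246500 to 247631, plus strand). It had 21928, 18816, 15668, 17652 and 16918 scaled CPM in the selenite day 1 libraries, against 2.92, 2.52 and 3.16 in the control day 0 libraries. The groups did not overlap, and the log2 fold change was 12.39 ± 0.84 (SE of the limma fit; adjusted p = 5.51e-12). At control day 1 it lay at 55.7 to 204 scaled CPM with a median of 139, above all day 0 libraries, so this gene also rose over the day without selenite (log2 fold change 5.30, adjusted p = 2.7e-05).

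CC84DRAFT_827500, also of 3 exons (NW_017253365.1, bases 2143106 to 2144554, minus strand), shows the other pattern. Its scaled CPM were 12443, 14868, 14294, 15338 and 11146 at selenite day 1, against 11.2, 5.86 and 7.98 at control day 0. Its log2 fold change was 10.62 ± 0.31 (limma, adjusted p = 1.52e-18), while control day 1 had 4.097 to 11.2 scaled CPM (median 7.77), within the range of day 0 but for its lowest library. The day without selenite changed it by -0.07 on the log2 scale (adjusted p = 0.92 by limma).

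CC84DRAFT_1222313 (NW_017253372.1, bases 313545 to 315382, minus strand) behaved similarly. It had 4130, 4391, 4910, 4844 and 4527 scaled CPM at selenite day 1, a narrow range, against 3.13, 1.498 and 0.722 at control day 0. The log2 fold change was 11.10 ± 0.52 (limma, adjusted p = 6.2e-15), and control day 1 lay at or under 2.27 scaled CPM in every library. CC84DRAFT_1208187, a gene of 1 exon, likewise had 2247 to 3951 scaled CPM at selenite day 1, against 0.225 to 3.03 at control day 0 and at most 1.83 at control day 1.

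The other rises among the 10 largest were CC84DRAFT_1185770 (log2 fold change 10.90), CC84DRAFT_1084241 (10.73), CC84DRAFT_1169657 (10.36), CC84DRAFT_1131545 (9.74), CC84DRAFT_1165158 (9.87) and CC84DRAFT_1231582 (9.47). All of them were without overlap between the groups, as the rule for naming them required. CC84DRAFT_1169657 averaged 7547 ± 738 scaled CPM at selenite day 1 (SD, n = 5), 34.9 ± 9.38 at control day 1 (n = 6) and 5.59 ± 2.76 at control day 0 (n = 3), and every control day 1 library stood above every day 0 library. The last pair had no read in any control day 0 library, so their fitted changes depend on the pseudocount and are taken up with the genes silent at day 0.

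**Figure D3:**
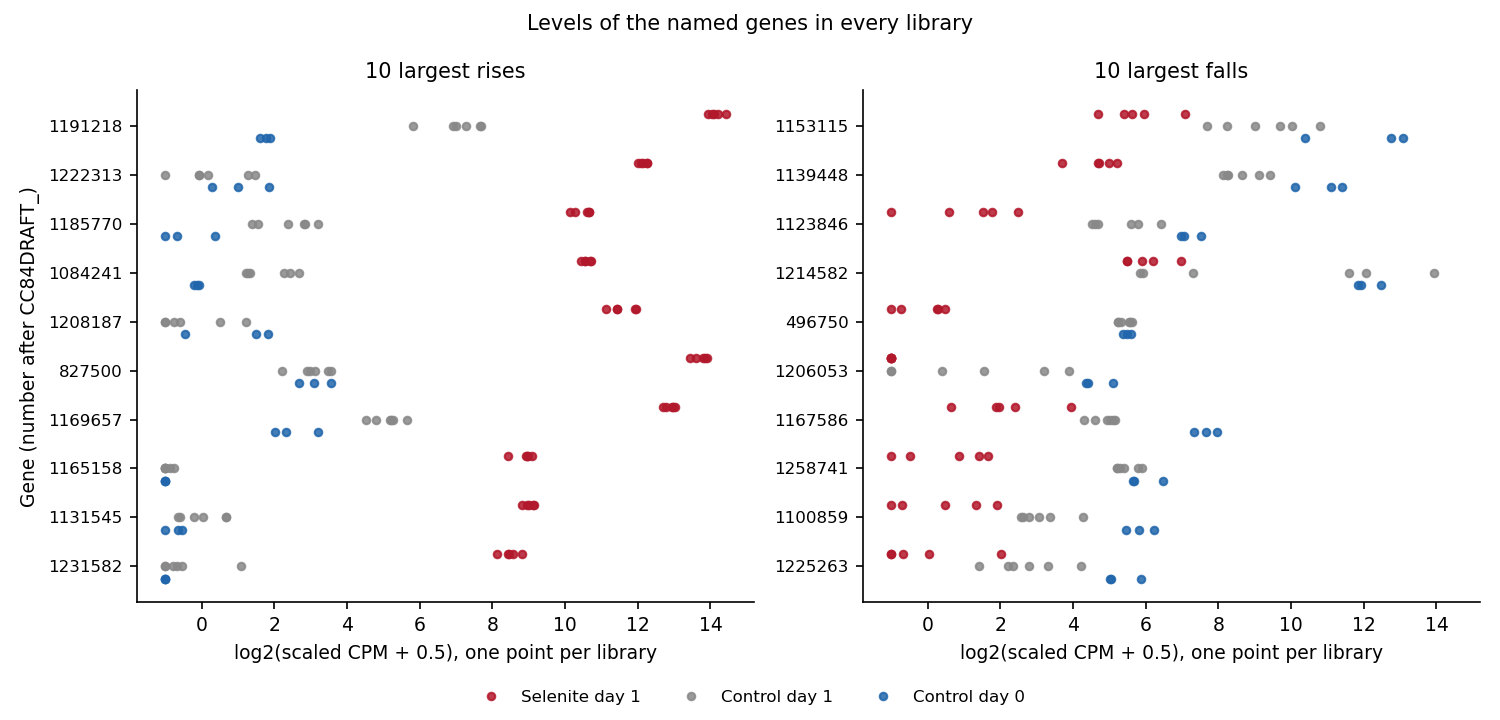
Levels of the 10 genes with the largest rises (left) and the 10 with the largest falls (right), as log2(scaled CPM + 0.5), 1 point per library, with selenite day 1 in red, control day 1 in grey and control day 0 in blue. Red and blue points do not overlap for any of the 20 genes, as the choice of the genes required, and the grey points lie near the blue for some, such as CC84DRAFT_827500 and CC84DRAFT_496750, and between them for others, such as CC84DRAFT_1169657 and CC84DRAFT_1139448.

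The highest level per kilobase of exon at selenite day 1 belonged to CC84DRAFT_1180339, a gene of 1 exon and 582 bases (NW_017253371.1, bases 86589 to 87170, minus strand). It held 10.98% of all reads at selenite day 1, 5.74% at control day 1 and 0.174% at control day 0. In scaled CPM it had 205693, 225380, 143098, 134106 and 184992 at selenite day 1, against 1097, 1685 and 1685 at control day 0. The log2 fold change was 6.91 ± 1.19 (limma, adjusted p = 2.07e-05). Control day 1 stood at 55101 to 89261 scaled CPM (median 64038), a change of 5.54 from day 0 without selenite (adjusted p = 0.00077). Every selenite day 1 library lay above every control day 1 library, though that difference did not pass the limma test (1.36 ± 0.99, adjusted p = 0.24). The limma SE pools the spread of all 5 groups, and control day 6 ran from 584 to 52968 scaled CPM. By level per kilobase this gene was first at selenite day 1 and number 26 at control day 0.

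The gene second in level per kilobase, CC84DRAFT_666498, also has 1 exon (NW_017253363.1, bases 2629812 to 2631440, plus strand). It had 146372, 124543, 79332, 79950 and 90041 scaled CPM at selenite day 1, against 1124, 1958 and 2347 at control day 0, a rise of 5.87 ± 0.87 on the log2 scale (adjusted p = 2.73e-06 by limma). Selenite day 1 replicates 1 and 2 were the highest for both of these genes. The next genes, CC84DRAFT_1083401 and CC84DRAFT_1171067, rose by less, with log2 fold changes of 2.74 ± 0.46 and 3.21 ± 0.52. Both were already among the leading genes before selenite, at ranks 5 and 13 per kilobase at control day 0.

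By log2 fold change, CC84DRAFT_1083401 was the only gene of these 4 that was lower with selenite at day 6. It had 32634, 26895, 16316, 16254 and 22983 scaled CPM at selenite day 1, against 3321, 3117 and 3514 at control day 0. At day 6 it averaged 993 scaled CPM in selenite libraries and 6158 in controls, and its difference was -2.69 ± 0.43 on the log2 scale (adjusted p = 1.2e-05 by limma). Of the others, only CC84DRAFT_666498 was called higher at day 6 (2.68, adjusted p = 0.0078 by limma). CC84DRAFT_1180339 (1.40, adjusted p = 0.304) and CC84DRAFT_1171067 (1.12, adjusted p = 0.0536) did not pass the limma test. The day 6 means of CC84DRAFT_1180339 were 24433 scaled CPM with selenite and 24762.5 in controls.

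Genes of 1 exon, which are 26.6% of the genes of the table, held more of the reads at selenite day 1 than at control day 0. Their summed share was 32.1%, 33.2%, 28.2%, 27.8% and 30.8% of reads at selenite day 1, against 11.2%, 10.5% and 10.5% at control day 0. The means were 30.4% ± 2.36 and 10.7% ± 0.382 (SD, n = 5 and 3; exact permutation test, adjusted p = 0.0357), with control day 1 at 19.1% ± 1.26 (n = 6). Most of this difference came from CC84DRAFT_1180339 and CC84DRAFT_666498. The first held 10.98% of reads at selenite day 1 and 0.174% at control day 0, and the second 6.36% and 0.208%. With both left out of the sum and the total, the shares of genes of 1 exon were 15.8% ± 0.602 at selenite day 1 and 10.4% ± 0.413 at control day 0. They were still without overlap (exact permutation p = 0.0179).

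Counted by gene, the tilt was smaller. Of 3337 tested genes of 1 exon, 33.4% were called higher and 21.3% lower at selenite day 1, with a median log2 fold change of 0.24, against 30% and 30.4% of all tested genes and a median of -0.01. Of 3379 genes of 4 or more exons, 27.1% were called higher and 35.9% lower, with a median of -0.20. With library size alone the medians of both groups were negative, at -0.31 and -0.99, and those of 1 exon lay 0.42 above the median of all genes in place of 0.25. Genes with names beginning with STRG, which are transcripts without a RefSeq locus tag, were called higher in 35.6% and lower in 13.3% of 278 cases (median 0.40, or -0.01 with library size alone). By quartile of exon length, 29.7% of the shortest and 29.9% of the longest genes were called higher, and 26.8% and 33.8% were called lower. Scaling by library size alone, 21.2% of the shortest and 14.4% of the longest were called higher, and 39.3% and 56.3% lower.

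Genes in the lowest quartile of mean level at day 6, in libraries of neither group, were most often called higher at selenite day 1. In the lowest quartile of mean day 6 level, 37.1% were called higher and 8.75% lower (median 0.53), and in the highest quartile 30.3% were called higher and 42.03% lower (median -0.25). Quartiles 2 and 3 had 28.5% and 23.9% called higher, both under the highest quartile, and 27.6% and 43.2% called lower. With library size alone the medians of the lowest and highest quartiles were 0.19 and -1.18. Genes of low level have less power for a call, most of all for a fall. The filter on low counts took in all groups, so a gene low at day 6 passed more easily if high at selenite day 1. This favours rises in the lowest quartile. The part of power and of the filter in these shares was not tested.

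Among the falls, CC84DRAFT_1153115 had the largest change on the log2(scaled CPM + 0.5) scale, where a gene near 0 reads is held back by the pseudocount. It is a gene of 7 exons (NW_017253369.1, bases 223628 to 225476, plus strand). It had 134, 41.8, 25.1, 61.1 and 49.0 scaled CPM at selenite day 1, against 1326, 6927 and 8617 at control day 0, where replicate 1 was lowest. Its log2 fold change was -6.32 ± 0.71 (limma, adjusted p = 3.7e-08). At control day 1 it had 203 to 1775 scaled CPM with a median of 673, above every selenite day 1 library and below control day 0 but for its highest library.

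CC84DRAFT_1139448 showed the same order. It had 25.4, 25.7, 36.2, 31.4 and 12.5 scaled CPM at selenite day 1, against 1109, 2194 and 2692 at control day 0 and 277 to 678 at control day 1 (log2 fold change of selenite day 1 over control day 0 -6.21 ± 0.42, limma, adjusted p = 6.54e-12). The change of control day 1 from day 0 was -2.24 (adjusted p = 0.00021).

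CC84DRAFT_496750 (NW_017253361.1, bases 4428113 to 4429705, minus strand) fell at selenite day 1, while the control of the same day stayed near day 0. It had 0.893, 0.683, 0, 0.0995 and 0.715 scaled CPM at selenite day 1, 38 reads in all, against 44.4, 40.6 and 47.4 at control day 0. The log2 fold change was -5.62 ± 0.39 (limma, adjusted p = 8.85e-12). Control day 1 had 37.1 to 48.9 scaled CPM (median 42.6), about the day 0 range, and differed from day 0 by -0.06 on the log2 scale (adjusted p = 0.95). CC84DRAFT_1258741 was similar, with 0 to 2.68 scaled CPM at selenite day 1, 36.2 to 58.8 at control day 1 and 50.1 to 87.9 at control day 0.

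CC84DRAFT_1206053 had no read in any selenite day 1 library, against 33.9, 20.8 and 19.9 scaled CPM at control day 0. Its fitted log2 fold change of -5.62 depends on the pseudocount and was -7.92 with a pseudocount of 0.1, past the -6.33 of CC84DRAFT_1153115 in that setting. Its control day 1 libraries ran from 0 to 14.4 scaled CPM with a median of 1.62, so that some libraries without selenite were also at 0. CC84DRAFT_1214582 varied widely at control day 1, from 57.0 to 15539 scaled CPM with a median of 1616. At selenite day 1 it had 72.7, 124.5, 44.6, 44.5 and 58.9 scaled CPM, against 5704, 3667 and 3861 at control day 0 (log2 fold change -6.07 ± 1.26, limma, adjusted p = 0.00019). The selenite day 1 libraries thus overlapped those of control day 1, while they lay apart from control day 0.

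The remaining falls among the 10 largest, CC84DRAFT_1123846, CC84DRAFT_1167586, CC84DRAFT_1100859 and CC84DRAFT_1225263, had log2 fold changes of -6.10 to -5.43. They averaged 0.840 to 5.43 scaled CPM at selenite day 1, 7.45 to 43.3 at control day 1 and 40.7 to 202 at control day 0. Each had its control day 1 mean between the other groups.

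Some genes were detected at selenite day 1 that had no read at all at day 0. In the 3 control day 0 libraries 1909 genes of the table had no read, and 1112 of these had reads at selenite day 1, 294 of them in all 5 libraries. Of the 1909, 196 reached a mean of 1 CPM at selenite day 1, and 24 reached 10 CPM. The groups differ in number, and more libraries give more chances of a read, so these counts are not compared with the reverse. In the reverse direction 1057 genes had no read at selenite day 1, of which 34 reached 1 CPM at control day 0 and 2 reached 10 CPM.

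CC84DRAFT_1165158 led the genes silent at day 0. It is a gene of 1 exon on NW_017253365.1 (bases 1308701 to 1309500, plus strand). It had 540, 491, 502, 488 and 342 scaled CPM at selenite day 1, against 0 reads in every control day 0 library. In CPM it averaged 294 ± 48.7 (SD, n = 5), which is 2819 times a floor of 3 reads per day 0 library. The 6 control day 1 libraries held 3 reads of it together.

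CC84DRAFT_1231582 had 0 reads at day 0 and averaged 224 ± 41.6 CPM at selenite day 1, which is 2145 times the same floor. CC84DRAFT_1151599 averaged 119 ± 21.5 CPM at selenite day 1, or 1145 times that floor, with 0 reads at control day 1 as well as at day 0. Among the 196 genes that reached 1 CPM at selenite day 1 from no read at day 0, 63 had no read in the 6 control day 1 libraries and 6 reached a mean of 1 CPM there.

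The summed reads of the strongest risers show the same in bulk, as a description, since the genes were chosen by this contrast. The 896 genes that rose at least 8-fold held 48.2% ± 1.88 of reads at selenite day 1, 15.5% ± 1.95 at control day 1 and 2.96% ± 0.259 at control day 0. The 291 genes that fell at least 8-fold held 0.419% ± 0.0227 at selenite day 1, 3.79% ± 1.16 at control day 1 and 11.6% ± 3.25 at control day 0 (SD, n = 5, 6 and 3).

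The controls of day 1 separate a further day of culture from selenite only through comparisons that share libraries with the main one, so their values stand side by side with no test of the likeness. From day 0 to day 1 without selenite, 3802 genes were called changed (27.8% of those tested), with 2053 higher (15%) and 1749 lower (12.8%). With library size alone these were 1009 higher and 4163 lower. Between selenite day 1 and control day 1, 8555 genes were called (62.6%), with 4216 higher (30.8%) and 4339 lower (31.7%), or 3146 higher and 5356 lower with library size alone.

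For 2268 genes the 95% interval of the change from control day 0 to selenite day 1 lay within 2-fold in either direction. Some of these differed from the control of the same day. CC84DRAFT_1196343 (NW_017253364.1, bases 2375678 to 2377070, minus strand) had 54.4, 37.96, 46.0, 47.6 and 39.6 scaled CPM at selenite day 1, against 51.9, 58.3 and 61.5 at control day 0, while control day 1 stood at 376 to 658 (median 466.5). Its log2 fold changes were -0.35 ± 0.21 against control day 0 and -3.40 against control day 1. With library size alone the first of these was -1.28 (limma, adjusted p = 3.7e-06).

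CC84DRAFT_1222452 did the opposite. It had 48.9, 44.5, 49.7, 44.2 and 38.01 scaled CPM at selenite day 1, against 37.9, 41.2 and 30.3 at control day 0, with control day 1 lower at 6.13 to 11.7 (median 8.22). CC84DRAFT_1207683 had 3.96 to 8.88 scaled CPM at selenite day 1, 0.175 to 1.81 at control day 1 and 4.85 to 7.98 at control day 0. CC84DRAFT_414680 had 5.61 to 18.0 scaled CPM at selenite day 1, 50.1 to 108 at control day 1 and 9.75 to 19.9 at control day 0, and with library size alone its change from day 0 was -1.12 (limma, adjusted p = 0.0083). These 4 genes were chosen for this pattern, so it is a description, and for the last 3 the direction of the small difference from day 0 turned in some settings.

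For other genes selenite day 1 lay between the 2 controls, so that the direction depended on the control used. Among the 13676 tested genes, 105 were called higher than control day 0 and lower than control day 1, and 28 the other way. These counts take only genes whose selenite day 1 and control day 0 libraries did not overlap, a condition that 54.7% of tested genes met. CC84DRAFT_1167621, of 1 exon and 200 bases, had 5.04, 10.7, 3.91, 5.52 and 7.87 scaled CPM at selenite day 1, against 0.405, 0.892 and 1.34 at control day 0, and 21.5 to 59.4 (median 36.8) at control day 1. CC84DRAFT_1185303 ran the other way, with 27.5, 25.1, 29.2, 30.4 and 19.8 scaled CPM at selenite day 1, against 95.8, 88.7 and 65.8 at control day 0, and 4.15 to 9.44 (median 5.80) at control day 1.

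A further pair of this kind, named by the same rule, rested on control day 0 replicate 1. CC84DRAFT_1138657 had 17.8, 18.6, 12.6, 23.6 and 15.7 scaled CPM at selenite day 1, against 279, 39.6 and 30.2 at control day 0. Its log2 fold change of -1.98 (limma, adjusted p = 0.014) became -0.98 without that library (adjusted p = 0.226). CC84DRAFT_1214642 had 2127 to 5003 scaled CPM at selenite day 1 and 160, 1061 and 1066 at control day 0, and its change of 2.48 (adjusted p = 0.00548) became 1.57 without that library (adjusted p = 0.0898).

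The 9 libraries of day 6 are in neither group of the comparison and give a reading of the same genes in other libraries. All comparisons come from the same fit, so they share each gene's estimate of spread, the scaling and the filter. A gene of small spread is called more easily in each of them. How much this adds to the shares below, beside those of all tested genes, was not tested. The labels do not tell whether these came from other flasks. Between selenite day 6 and control day 6, 48.6% of all tested genes were called, 27.1% higher and 21.5% lower. Of the 4097 genes higher at selenite day 1 than at day 0, 54.5% were called higher with selenite at day 6 and 6.10% lower. Of the 4154 lower genes, 42.4% were called lower at day 6 and 10.7% higher. Taken from the other list, 60.3% of the genes higher at day 6 and 59.8% of those lower at day 6 were called in that direction at selenite day 1.

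Among genes with the largest changes the shares were higher. Of the 896 genes that rose at least 8-fold, 723 (80.7%) were called higher with selenite at day 6 and 19 lower, and of the 291 that fell at least 8-fold, 214 (73.5%) were called lower and 5 higher. Each of the 20 genes named for the largest rises and falls was called in its direction at day 6. CC84DRAFT_1222313 kept the largest of these day 6 changes, with 2321 scaled CPM at selenite day 6 and 3.35 at control day 6 (log2 fold change 9.41 ± 0.48, limma, adjusted p = 7.8e-14). CC84DRAFT_1191218 averaged 628 scaled CPM at selenite day 6 and 118 at control day 6, a change of 3.61 ± 0.77 (limma, adjusted p = 0.0004). Its control day 6 libraries lay far apart, at 4.91, 175, 6.99, 202 and 203 scaled CPM. The selenite day 6 libraries had 410 to 848.

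Without selenite, the later interval from day 1 to day 6 gave other shares. It is not the interval of the main comparison, which runs from day 0 to day 1. Between control day 6 and control day 1, which also share no library with the comparison, 43.7% of all tested genes were called, 21.6% higher and 22.1% lower. Of the genes higher at selenite day 1 than at control day 0, 13.8% were higher and 25.8% lower in that comparison. Of the genes lower at selenite day 1, 28.3% were higher and 24.4% lower, and of those that fell at least 8-fold, 40.2% were higher.

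**Figure D4:**
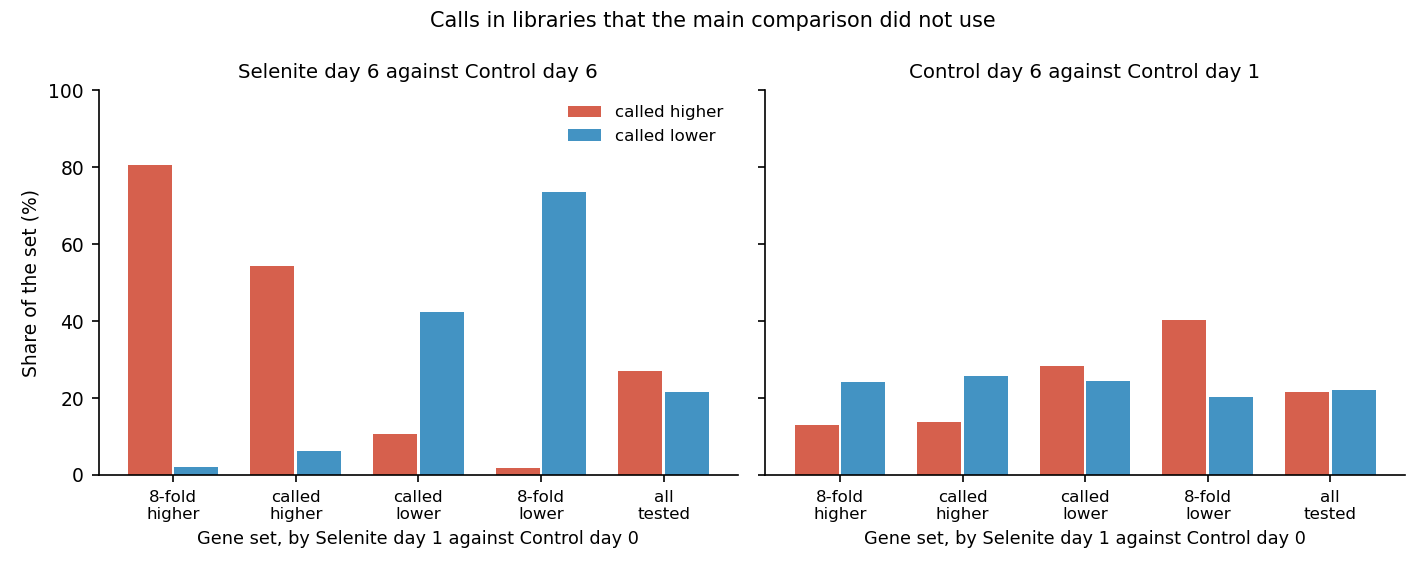
Share (percent) of gene sets called higher (red) or lower (blue) between selenite day 6 and control day 6 (left) and between control day 6 and control day 1 (right), for genes called at least 8-fold higher, all called higher, all called lower and at least 8-fold lower at selenite day 1 against control day 0, and for all tested genes. On the left, 80.7% of the 8-fold rises are called higher and 73.5% of the 8-fold falls lower, against 27.1% and 21.5% of all tested genes.

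Genes that rose strongly also lay side by side in places. Runs of at least 4 consecutive genes on a scaffold, all called in the same direction with changes of at least 4-fold, numbered 26 for rises and 4 for falls. They held 109 of the 1814 genes that rose at least 4-fold (6.01%) and 16 of the 1157 that fell as far (1.38%). The background is 13.3% and 8.46% of tested genes past the same fold, and how many runs chance would give was not tested. The longest runs had 5 genes; there were 5 of these, all of rises, and the longest run of falls had 4.

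Of these 5 runs, the one with the largest change lies on NW_017253363.1 (bases 1883155 to 1891093), from CC84DRAFT_1163467 to CC84DRAFT_1163471. Its log2 fold changes were 5.08, 3.12, 8.92, 5.36 and 5.75 in order of position. The gene in the middle, CC84DRAFT_1089173, averaged 2181.5 scaled CPM at selenite day 1, 40.7 at control day 1 and 3.91 at control day 0. The first gene overlaps the next by their ends on opposite strands, and counting used strand. At control day 1 the run did not move together: CC84DRAFT_1089173 differed from day 0 by 3.20 and the other 4 genes by -1.04 to 0.35.

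A run on NW_017253362.1 (bases 1406028 to 1417413) begins with CC84DRAFT_1203745, which averaged 7214 scaled CPM at selenite day 1, 2625 at control day 1 and 72.6 at control day 0. The other genes of that run rose by 2.89 to 5.91 on the log2 scale and were at or under 199 scaled CPM at selenite day 1. A second run on NW_017253363.1 (bases 572195 to 586593) holds 5 genes of the plus strand with rises of 3.08 to 5.83. In it CC84DRAFT_1185911 averaged 692 scaled CPM at selenite day 1, 1996 at control day 1 and 80.2 at control day 0, highest in the control of the same day. CC84DRAFT_1089296 averaged 2121 at selenite day 1, 179 at control day 1 and 36.03 at control day 0.

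The last 2 runs of 5 genes lie on NW_017253360.1, at bases 2274263 to 2287970 and 3482267 to 3493886, with rises of 2.04 to 5.99 and 2.04 to 4.26. Of their genes, CC84DRAFT_63224, CC84DRAFT_1254683 and CC84DRAFT_1077283 had no read at control day 0 and averaged 31.4, 9.54 and 5.75 scaled CPM at selenite day 1. CC84DRAFT_1222313 and CC84DRAFT_1165158, described above, each stand in a run of 4, in which the other genes rose by at least 4.41 and at least 2.71.

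**Figure D5:**
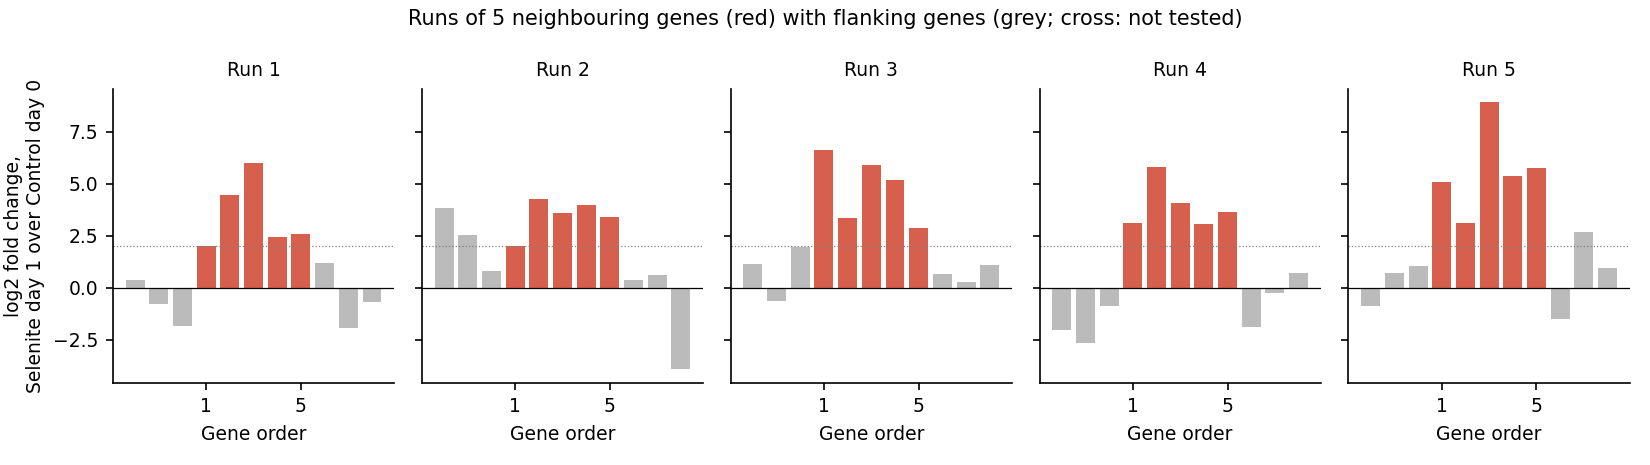
Log2 fold change of selenite day 1 over control day 0 for the genes of the 5 longest runs (red, numbered 1 to 5 in order along the run) and for 3 neighbouring genes on either side (grey); the dotted line marks 4-fold and the order of the runs is by scaffold and position. The genes next to a run at either end range from -1.88 to 1.96, and run 5 holds the largest change at 8.92.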

How the data were processed

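The authors deposited CPM, made per the file headers from counts by featureCounts (Subread 2.0.6, strand option 2, mates counted singly). The submitters' processing notes also name Trimmomatic 0.39, STAR 2.7.1a, R 4.1.0 and edgeR 3.36.0; a build was not given in the sources used here. These CPM carry no composition factor. Taking the smallest value of a library as 1 read, 100% of 348772 values were whole within 1e-06 reads. Exon lengths and positions (counted from 1) come from the deposited count table. Of 14844 locus tags, 14839 matched RefSeq assembly Parsp1, 14815 with the same start; 320 genes have names beginning with STRG.

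In limma 3.58.1 (R 4.3.3) all 23 libraries entered a fit of 5 group means on log2(CPM / TMM factor + 0.5), with a trend of variance on level; factors came from edgeR 4.0.16. This scale understates changes of low genes. filterByExpr (minimum count 10, total 15) kept 13676 genes and left out 1488. Tests were two-sided, called at Benjamini-Hochberg adjusted p under 0.05. The scripts were tested on simulated data. No 2 libraries were duplicates: at least 92.8% of genes differed in reads between any pair.

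Named genes were, among called genes without overlap, the 10 largest rises and 10 largest falls with a mean of at least 10 scaled CPM in the higher group. To these came the 4 genes highest per kilobase at selenite day 1, 4 with a 95% interval within 2-fold but far from control day 1, 4 of opposite direction by control, and the longest runs, of which 5 tied. Genes in the text on silent genes, runs and single comparisons beyond these were chosen after their values were seen. The gene groups and rules were chosen with earlier results of these data known. Groups by protein or promoter sequence and by product name were planned and not run. All labels give the same batch. Library measures were tested by exact permutation. Alternatives were other scalings, pseudocounts, filters and tests (edgeR, DESeq2 1.42.0, voom), the 8 libraries alone, a replicate block and leaving out each library.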

Additional observations from a re-analysis of the deposited data

Results flagged for a closer look

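A check for single libraries that stand apart covered 72 groups of 5 or 6 libraries. These were the named genes at selenite day 1 and at control day 1, and the library measures at selenite day 1 only. In each group the highest or lowest library was checked for a gap to the others that is large for the range of the group. This picked out 6, where chance picks about 1 in 20. At selenite day 1, CC84DRAFT_1165158 was lowest in replicate 5, at 342 scaled CPM against 488 to 540 in the others. CC84DRAFT_1167586 was highest in replicate 1, at 14.7 against 1.04 to 4.78, and CC84DRAFT_1225263 was highest in replicate 2, at 3.55 against 0 to 0.528. At control day 1, CC84DRAFT_1214582 reached 15539 in replicate 1 against 57.0 to 4306. CC84DRAFT_1100859 had 18.9 in the same library against 5.43 to 9.70, and CC84DRAFT_1231582 had 1.61 in replicate 6 against 0 to 0.181.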

How the results depend on the processing

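The cause of the changes below was not tested unless given. With library size alone 2449 genes were higher and 6549 lower, and a test against a 1.5-fold change called 5384 genes, 2558 of them lower. Leaving out 1 library gave 7486 to 8148 called genes, 3723 to 4081 higher and 3763 to 4105 lower. Counts of genes at least 8-fold higher and lower were 510 and 875 with library size alone, 1668 and 587 with edgeR, 1714 and 569 with DESeq2, 1806 and 781 with voom, 1413 and 559 with a pseudocount of 0.1, and 702 and 218 with a pseudocount of 1. Those at least 64-fold were 749 and 102 with edgeR, 713 and 57 with DESeq2, 548 and 46 with voom and 224 and 12 with a pseudocount of 0.1. The share of higher genes also higher at day 6 was 62.8% with library size and 50.4% with DESeq2 size factors; the share for lower genes was 45.6% with DESeq2 size factors, 40.3% with a pseudocount of 0.1 and 40.1% with edgeR.

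Libraries with the same replicate number had r of deviations of -0.059, -0.0046 and -0.00091 for replicates 1, 2 and 3. So few values cannot tell whether libraries were paired by number, and the labels do not tell. With the replicate block 8181 genes were called, 4073 higher and 4108 lower. The 24 genes named for change or level kept direction and call in all 20 alternatives run on them. Those without reads in a group ran from 8.87 to 16.79 (CC84DRAFT_1165158), 8.48 to 16.39 (CC84DRAFT_1231582) and -12.54 to -4.65 (CC84DRAFT_1206053), nearest 0 with a pseudocount of 1 and farthest with edgeR, so the order of the largest changes differs between settings: voom gives CC84DRAFT_1165158 14.97 and CC84DRAFT_1191218 12.62. Small differences turned: CC84DRAFT_1207683 to -0.81 with library size, -0.017 with voom and -0.027 with the block, with -0.11 to 0.23 in leave-outs; CC84DRAFT_1222452 to -0.62 with library size; CC84DRAFT_414680 to 0.080 without control day 0 replicate 1 (-0.42 to 0.080 in leave-outs) and called lower at -1.12 with library size. The fall of CC84DRAFT_1138657 was not called with a pseudocount of 0.1 (adjusted p = 0.0538, limma) or against 1.5-fold (0.0624).

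Leaving out a library leaves fewer splits, so the 4 called measures of the libraries had adjusted p of 0.0571 or 0.0952 (exact permutation). Their differences ran from -0.684 to -0.425 for the TMM factor, 8.30 to 9.38 points for the top gene, 23.9 to 29.3 for the top 100 and 19 to 20.3 for genes of 1 exon. Genes at 1 CPM or more differed by -282.5 to 51 in leave-outs, positive without control day 0 replicate 1, and by 662.8 on scaled CPM, against -159.7; the share of STRG genes differed by -0.0098 to 0.039 in leave-outs. No run had 6 genes (0). Over all genes with a read, 29.1% of 1-exon genes were called higher and 18.4% lower, 28.2% and 29.9% of those of 2 to 3 exons, and 34.1% of those of 4 or more were lower. Depth limits statements on genes under 3 reads per library.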
